A study of Mus musculus with 6 samples.

Results

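The genes described here are 34 genes of cholesterol and fatty acid synthesis, chosen by name: the enzymes of the sterol pathway, the SREBP transcription factors with the proteins that control them, and the enzymes that make, desaturate and elongate fatty acids. All 34 were present among the 15796 genes of the deposited expression table, and all 34 reached the mean level needed for testing. The 6 libraries came from cultured mouse pre-osteoblasts of the line MC3T3-E1. In 3 libraries the cells had been transfected with a plasmid carrying Hsd11b1 (overexpression 1 to 3), and in 3 with a plasmid carrying EGFP (control 1 to 3), whose genotype the labels give as WT. Cells of both groups were given 11-DHC, short for 11-dehydrocorticosterone. The enzyme 11β-HSD1, which Hsd11b1 encodes, converts this inactive compound to corticosterone, an active glucocorticoid. The sources used here give neither dose nor duration nor the share of cells that took up a plasmid. They do not say that replicates were separate cultures either, so the p-values speak only of the spread among these libraries. The stated question of the study is the mechanism by which 11β-HSD1 in osteoblasts acts on bone formation and the handling of glucose.

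Cells build cholesterol from acetyl-CoA through mevalonate, isoprenoids and squalene, and then trim the lanosterol ring system step by step. SREBP-2, encoded by Srebf2, drives most of these enzyme genes, while SREBP-1, encoded by Srebf1, is best known for driving fatty acid synthesis. Both are held in the endoplasmic reticulum with the escort protein SCAP, which INSIG proteins retain there when sterols are plentiful. When sterols run low, SCAP carries the SREBPs to the Golgi, where proteases release the part that enters the nucleus. Insig1 is itself an SREBP target, so its mRNA follows the activity of the pathway that it restrains.

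The upstream sequences of 4 of these genes are shown because SREBPs act with the factor NF-Y upstream of genes that they drive. Hmgcs1 is an early and well known SREBP target. Msmo1 and Insig1 are the members with the largest falls in the log2 difference, and Ebp is the member that rose. Whether SREBPs act in these 4 sequences was not tested. Each is the 250 bases before the annotated start from RefSeq on GRCm38.p6, written 5′ to 3′ on the gene's strand at chr13:119690101-119690350 (+), chr8:64733579-64733828 (-), chr5:28071162-28071411 (+) and chrX:8193513-8193762 (-). Capitals mark matches on either strand to a sterol regulatory element (TCACNCCAC), an E-box (CACGTG), an NF-Y box (CCAAT) or the palindromic glucocorticoid response element.
Hmgcs1: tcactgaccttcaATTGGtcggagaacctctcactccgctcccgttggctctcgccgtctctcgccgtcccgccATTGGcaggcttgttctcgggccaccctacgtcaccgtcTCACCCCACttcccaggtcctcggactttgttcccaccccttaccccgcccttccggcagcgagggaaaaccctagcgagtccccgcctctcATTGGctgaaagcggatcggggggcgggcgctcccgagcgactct
Msmo1: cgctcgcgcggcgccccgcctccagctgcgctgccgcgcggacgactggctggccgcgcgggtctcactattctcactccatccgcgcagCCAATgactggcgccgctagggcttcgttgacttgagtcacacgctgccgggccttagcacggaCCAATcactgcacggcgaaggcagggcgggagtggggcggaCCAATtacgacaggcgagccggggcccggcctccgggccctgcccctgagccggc
Insig1: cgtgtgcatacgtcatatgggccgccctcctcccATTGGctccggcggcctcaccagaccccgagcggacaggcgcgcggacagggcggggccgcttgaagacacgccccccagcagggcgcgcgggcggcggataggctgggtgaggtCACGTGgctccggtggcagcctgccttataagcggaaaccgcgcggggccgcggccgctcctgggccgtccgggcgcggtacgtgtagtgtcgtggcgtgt
Ebp: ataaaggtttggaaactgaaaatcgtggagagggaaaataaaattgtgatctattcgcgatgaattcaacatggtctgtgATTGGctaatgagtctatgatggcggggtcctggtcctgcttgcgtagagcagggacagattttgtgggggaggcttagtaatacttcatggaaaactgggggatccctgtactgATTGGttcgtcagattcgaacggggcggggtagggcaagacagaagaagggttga
Hmgcs1 held 1 sterol regulatory element and 3 NF-Y boxes, Msmo1 held 3 NF-Y boxes, Insig1 held 1 E-box and 1 NF-Y box, and Ebp held 2 NF-Y boxes, with no overlapping matches. Of 27 members with an upstream sequence, 21 held an NF-Y box in at least 1 window, against 37.5% of all 27025 genes. It was held by 7 of the 9 matched members that fell and by 13 of the 17 that did not pass. An E-box was held by 6 members, against 6.86% of all genes, and the sterol regulatory element by Hmgcs1 alone, against 1.22%. No member held the glucocorticoid response element, which 0.0111% of all genes did. These are letter matches in short windows, and they say nothing about binding.

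Library totals recovered from the FPKM values (fragments per exon length and library total) were 18290795, 18655703 and 58666444 reads in overexpression 1 to 3 and 19932451, 34948121 and 16264238 reads in control 1 to 3. Hsd11b1 checked the labels, with 323, 315 and 345 FPKM in overexpression 1 to 3 and 1.90, 0.404 and 0.275 FPKM in control 1 to 3. Across genes, the deviation of each library except control 3 from its group mean followed GC content. As a description, Pearson's r was -0.361, -0.354 and 0.603 in overexpression 1 to 3 and -0.458, 0.441 and 0.071 in control 1 to 3. Of 10 osteoblast markers 8 were measured, with a summed level of 2398 to 2455 FPKM with overexpression and 2593 to 2866 FPKM in controls, and Alpl and Bglap were not analysed here. Of the 7 tested, Dmp1 fell, with 1.75 to 1.78 FPKM with overexpression and 9.53 to 10.32 FPKM in controls (limma adjusted p = 1.71e-06), Runx2 rose 1.21-fold (limma adjusted p = 0.0442) and 5 did not pass. Spp1, Col1a1 and Col1a2, which did not pass, made up most of the summed level, with control means of 1251, 767 and 695 FPKM. Ibsp lay below the level needed for testing, at 0.973 to 1.06 FPKM with overexpression and 0.0243 to 0.208 FPKM in controls. The part of these marker changes in the results on lipid genes was not tested. Of 9 adipocyte markers only Fabp4 was measured, at 1.14 to 1.36 FPKM with overexpression and 0.101 to 0.159 FPKM in controls. The 3 measured macrophage markers of 6 summed to 11.5 to 12.7 FPKM with overexpression and 11.9 to 13.4 FPKM in controls.

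Sterol synthesis genes were lower in the cells with Hsd11b1, with calls in 9 of 18 enzyme genes, and 2 of 10 fatty acid enzyme genes were lower as well. Of the 34 genes, 13 fell, 1 rose (Ebp) and 20 did not pass an adjusted p of 0.05 in limma's test on log2(FPKM + 1). The Benjamini-Hochberg adjustment ran over the 13120 genes tested. Over all genes tested, 5.84% fell and 6.22% rose. The median log2 difference of the 34 genes, overexpression minus control, was -0.28, beside -0.013 for all genes tested, and 31 of the 34 differences were negative, beside 53.3% of all genes. In 27 members every overexpression library lay below every control library, a separation that 16.1% of all genes tested showed, and in Ebp every one lay above, as in 14.7%. The 13 genes fell by 19.8% to 37.9% of the control mean. In RNA from whole cultures, fewer cells making a transcript and less of it per cell cannot be told apart.

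**Figure D1:**
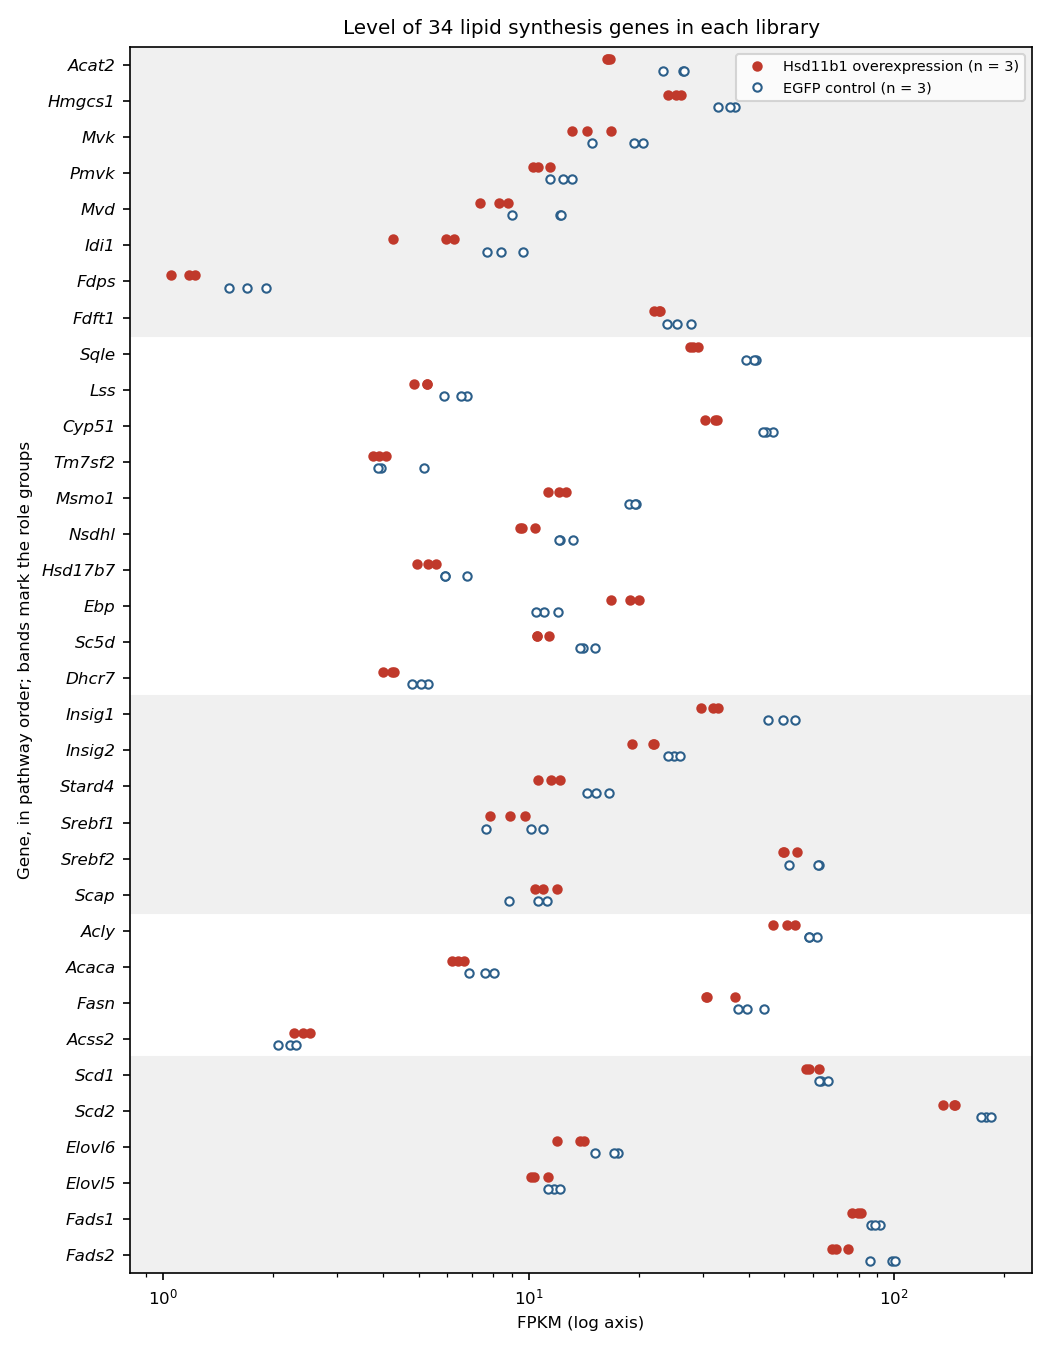
Level of each of the 34 genes in FPKM on a log axis, with filled points for the 3 overexpression libraries and, just below them, open points for the 3 control libraries. In 27 genes all filled points lie left of all open points, in Ebp they lie right of them, and in 6 genes they overlap.

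The count of 13 changed with the fit. With a correction of each library for GC content 24 members fell (8.88% of all genes fell), with arrayWeights, which gives noisier libraries less weight, 21 fell (10.7%), and with limma's voom on recovered reads 20 fell (7.35%). With 1 library left out at a time, 9 to 15 members fell, and Ebp rose each time. In the same fits 412 to 618 of the 13120 genes tested fell, against 766 with all 6 libraries. In the authors' deposited table, lower members at an adjusted p under 0.05 number 19, among them all 13 that fell here, and Ebp is higher, where 6.36% of its genes are lower and 6.74% higher.

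The mevalonate steps lead from acetyl-CoA to squalene. Of these 8 genes 4 fell, 0 rose and 4 did not pass, beside 5.84% of all genes tested that fell and 6.22% that rose. Hmgcs1 encodes the cytosolic synthase that makes HMG-CoA and had 25.4, 26.1 and 24.0 FPKM with overexpression, against 36.8, 33.0 and 35.6 FPKM in controls. It was the most abundant gene of these steps and fell by 28.3% (log2 difference -0.46, SE 0.07, limma adjusted p = 0.00312), with no overlap between the groups. An antisense gene, AC123738.2, shares 12.1% of the exon bases of Hmgcs1 on the other strand and also fell, to 25.1, 26.7 and 24.3 FPKM, against 39.9, 30.6 and 35.5 FPKM in controls (limma adjusted p = 0.0171). That call ended without control 3, overexpression 1 or overexpression 3 (adjusted p up to 0.0624). Since no source used here gives the strand setting of the counting, reads of this pair within the shared bases cannot be told apart.

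Acat2, the cytosolic thiolase that joins 2 acetyl-CoA molecules, had 16.7, 16.5 and 16.4 FPKM with overexpression and 26.5, 26.7 and 23.3 FPKM in controls. The overexpression libraries were nearly equal and all lay well below the controls (log2 difference -0.59, SE 0.07, limma adjusted p = 0.00119). Its near copy Acat3 matches it at 97.7% over 1477 bases, and reads may be split between them. Acat3 had 19.9, 21.9 and 21.2 FPKM with overexpression and 26.2, 24.1 and 22.7 FPKM in controls, and did not pass (log2 difference -0.20, limma adjusted p = 0.127).

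Idi1 encodes the isomerase that supplies dimethylallyl diphosphate and had 5.96, 6.24 and 4.25 FPKM with overexpression, against 8.43, 7.69 and 9.65 FPKM in controls. Overexpression 3 was the lowest and control 3 the highest, and the groups did not overlap (log2 difference -0.57, SE 0.13, limma adjusted p = 0.0236). The call ended without control 1 or without control 3 (adjusted p up to 0.0877). Processed pseudogenes match Idi1 at 100% over 684 bases and at 97.7% over 681 bases, and its reads may be split with them. Fdps, which encodes farnesyl diphosphate synthase, was the least abundant member at 1.05, 1.22 and 1.18 FPKM with overexpression, against 1.51, 1.69 and 1.91 FPKM in controls, and rested on 81 to 291 reads per library. It was lower in every overexpression library (log2 difference -0.33, SE 0.09, limma adjusted p = 0.0455), but the call held with only control 1 left out and ended without any other library (adjusted p up to 0.149). Another annotated gene on the same strand, absent from the deposited values, shares 26.7% of the exon bases of Fdps. How reads within the shared bases were assigned is not known here, and the measured level of Fdps may depend on it.

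The remaining mevalonate genes had negative differences that did not pass. Mvd, the mevalonate diphosphate decarboxylase, had 8.29, 7.38 and 8.78 FPKM with overexpression, against 9.01, 12.2 and 12.2 FPKM in controls, so that control 1 lay near the overexpression libraries (log2 difference -0.40, SE 0.12, limma adjusted p = 0.0647). Mvd passed as lower with arrayWeights, voom, the GC correction and without control 1, and the authors' deposited table calls it lower (adjusted p = 0.0155). Mvk, the mevalonate kinase, was the only gene of these steps with overlapping groups, at 14.4, 13.1 and 16.8 FPKM with overexpression and 14.9, 20.6 and 19.4 FPKM in controls. Differences were -0.18 for both Pmvk (phosphomevalonate kinase) and Fdft1 (squalene synthase), with limma adjusted p of 0.167 and 0.148. The exons of Fdft1 overlap those of the more abundant cathepsin gene Ctsb on the other strand over 18.3% of their bases.

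**Figure D2:**
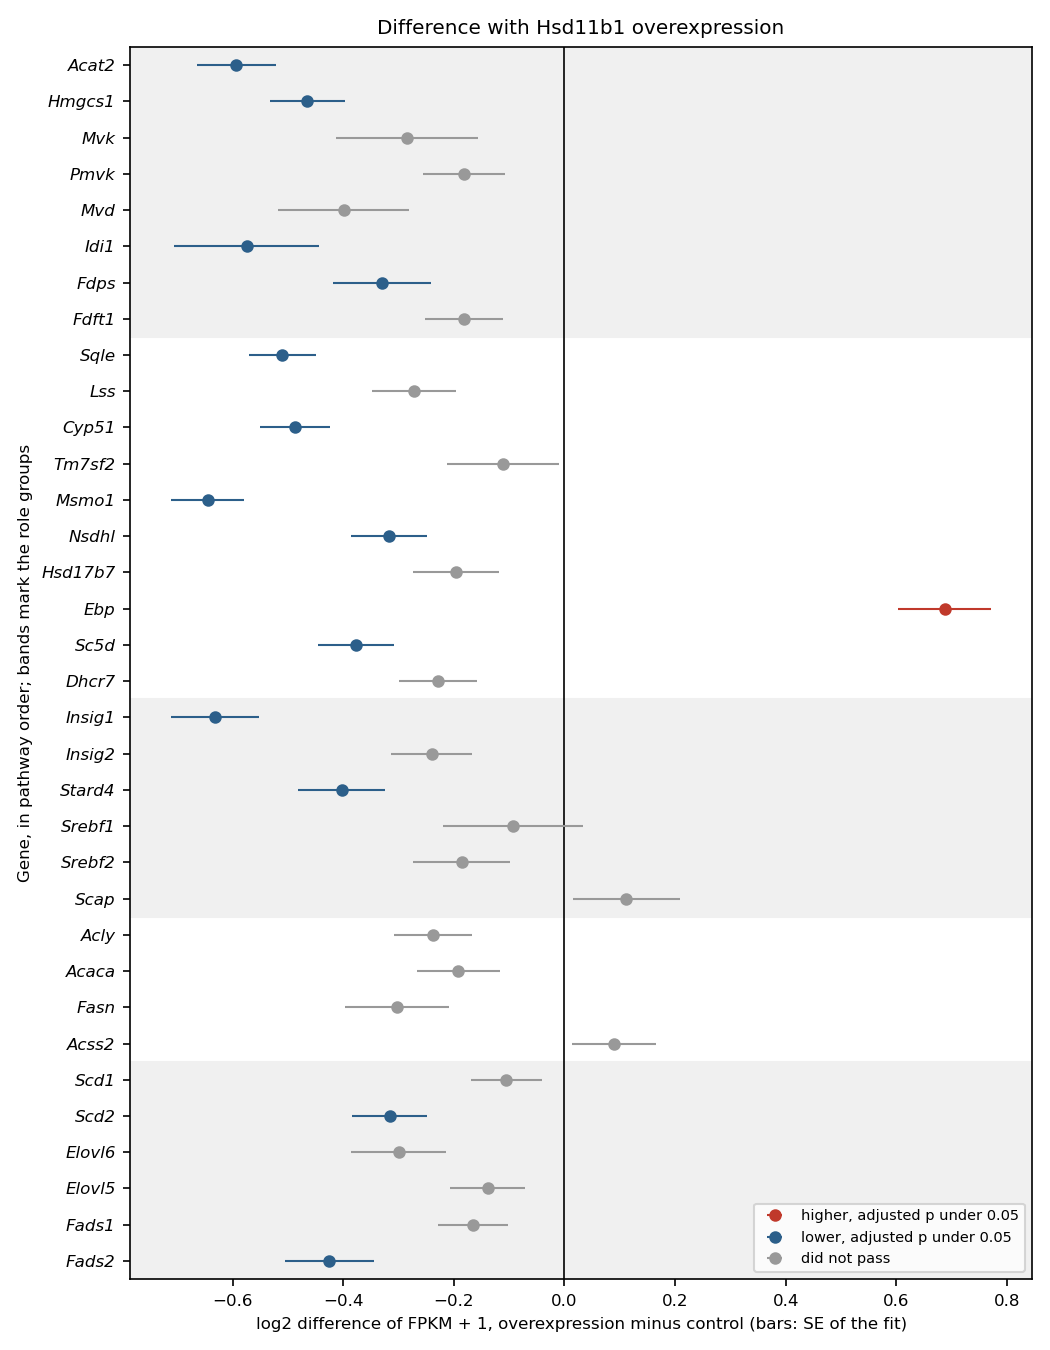
The log2 difference of each gene, overexpression minus control, with bars for the standard error of the fit, and colour marking genes past an adjusted p of 0.05. Of the 34 genes 31 lie left of 0, Msmo1 lowest at -0.65, and Ebp stands apart on the right at 0.69.

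After squalene, 10 enzyme genes complete the pathway. Among them 5 fell, 1 rose and 4 did not pass, where 5.84% of all genes tested fell and 6.22% rose. Sqle, the squalene epoxidase and a rate-limiting step of the pathway, had 28.3, 27.7 and 29.2 FPKM with overexpression, against 41.9, 41.3 and 39.2 FPKM in controls. It fell by 30.5% with little spread in either group (log2 difference -0.51, SE 0.06, limma adjusted p = 0.00123). Cyp51, the lanosterol demethylase and the most abundant of these enzymes, had 32.4, 32.7 and 30.5 FPKM with overexpression, against 46.7, 44.7 and 43.8 FPKM in controls. It fell by 29.3% (log2 difference -0.49, SE 0.06, limma adjusted p = 0.00176).

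The demethylation complex at carbon 4 of the sterol ring includes the products of Msmo1, Nsdhl and Hsd17b7. Msmo1, the oxidase, had 12.7, 12.2 and 11.3 FPKM with overexpression, against 19.7, 18.9 and 19.6 FPKM in controls. It fell by 37.9%, the largest fall among the 34 genes (log2 difference -0.65, SE 0.07, limma adjusted p = 0.000576), and 102 of the 13120 genes tested had a lower difference. Nsdhl, the decarboxylating dehydrogenase, fell less, with 10.4, 9.47 and 9.63 FPKM with overexpression and 12.2, 13.2 and 12.1 FPKM in controls (log2 difference -0.32, SE 0.07, limma adjusted p = 0.0192). Its call ended without control 2, control 3, overexpression 2 or overexpression 3 (adjusted p up to 0.0934). Hsd17b7, the ketoreductase, did not pass at 4.96, 5.58 and 5.32 FPKM with overexpression and 6.78, 5.93 and 5.91 FPKM in controls (log2 difference -0.20, limma adjusted p = 0.157).

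Ebp, the sterol isomerase that acts after demethylation, went the other way, with 18.98, 16.80 and 20.08 FPKM with overexpression, against 10.99, 12.03 and 10.51 FPKM in controls. It rose 1.67-fold (log2 difference 0.69, SE 0.08, limma adjusted p = 0.00135), and 209 of the genes tested had a higher difference. Sc5d, the desaturase of the step after Ebp, fell, with 11.4, 10.6 and 10.5 FPKM with overexpression and 15.2, 14.1 and 13.8 FPKM in controls (log2 difference -0.38, SE 0.07, limma adjusted p = 0.00817). Porcn, the gene just upstream of Ebp on the same strand, rose 4.66-fold, and its part in the Ebp result was not tested.

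The other sterol enzymes did not pass. Lss (lanosterol synthase) had 5.27, 4.85 and 5.27 FPKM with overexpression and 5.87, 6.81 and 6.54 FPKM in controls (log2 difference -0.27, limma adjusted p = 0.0524). Dhcr7, the last enzyme of 1 branch to cholesterol, had 3.99, 4.29 and 4.23 FPKM with overexpression and 4.80, 5.30 and 5.09 FPKM in controls (log2 difference -0.23, limma adjusted p = 0.0724). In both genes the groups did not overlap, and both passed as lower with arrayWeights, voom and the GC correction. Lss also passed without control 1 and with a minimum mean FPKM of 5. The authors' deposited table calls Lss lower (adjusted p = 0.00526) but not Dhcr7 (adjusted p = 0.0556). Tm7sf2, a sterol reductase, had overlapping groups, with control 2 above the rest (log2 difference -0.11, limma adjusted p = 0.556). Summed over the 18 sterol enzymes, levels were 238, 232 and 235 FPKM with overexpression and 302, 310.3 and 299 FPKM in controls.

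Among the 6 genes of SREBP control and sterol transport, 2 fell, 0 rose and 4 did not pass (5.84% of all genes tested fell and 6.22% rose). Insig1 had 31.9, 32.9 and 29.7 FPKM with overexpression, against 53.5, 49.7 and 45.3 FPKM in controls. Every overexpression library was far below the lowest control, and Insig1 fell by 36.3% (log2 difference -0.63, SE 0.08, limma adjusted p = 0.0015). Its paralog Insig2, whose gene SREBPs are not known to drive, had 21.9, 22.0 and 19.2 FPKM with overexpression and 24.9, 25.9 and 24.1 FPKM in controls. The groups of Insig2 did not overlap, although the test did not pass (log2 difference -0.24, SE 0.07, limma adjusted p = 0.0723). Insig2 passed as lower with voom and with the GC correction, and the authors' deposited table calls it lower (adjusted p = 0.0318). The ratio of Insig1 to Insig2 was 1.459, 1.497 and 1.548 with overexpression and 2.147, 1.915 and 1.879 in controls, with no overlap (exact two-sided permutation p = 0.1, the smallest that 3 against 3 can give).

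Stard4, which encodes a carrier of cholesterol between membranes and is an SREBP target, had 12.2, 11.5 and 10.6 FPKM with overexpression, against 16.6, 14.4 and 15.3 FPKM in controls. It fell by 26.0% (log2 difference -0.40, SE 0.08, limma adjusted p = 0.0121). The genes of the transcription factors and their escort did not pass. Srebf2, the most abundant gene of this group, had 49.8, 49.9 and 54.1 FPKM with overexpression and 51.7, 62.4 and 61.8 FPKM in controls (log2 difference -0.19, SE 0.09, limma adjusted p = 0.224). Srebf1 had 8.92, 7.87 and 9.80 FPKM with overexpression and 7.66, 11.0 and 10.1 FPKM in controls (log2 difference -0.09, SE 0.13, limma adjusted p = 0.714). Scap had 10.39, 10.94 and 11.99 FPKM with overexpression and 8.84, 11.23 and 10.64 FPKM in controls (log2 difference 0.11, limma adjusted p = 0.533). The groups overlapped in Srebf1, Srebf2 and Scap, and control 1 was the lowest control in each.

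The GC correction added 11 members to those that fell, namely Mvk, Mvd, Fdft1, Lss, Dhcr7, Insig2, Srebf2, Acly, Fasn, Elovl6 and Fads1. Over all 34 genes GC content ran from 41.9% to 59.1% with a median of 49.3%, beside a median of 49.7% for all genes tested.

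**Figure D3:**
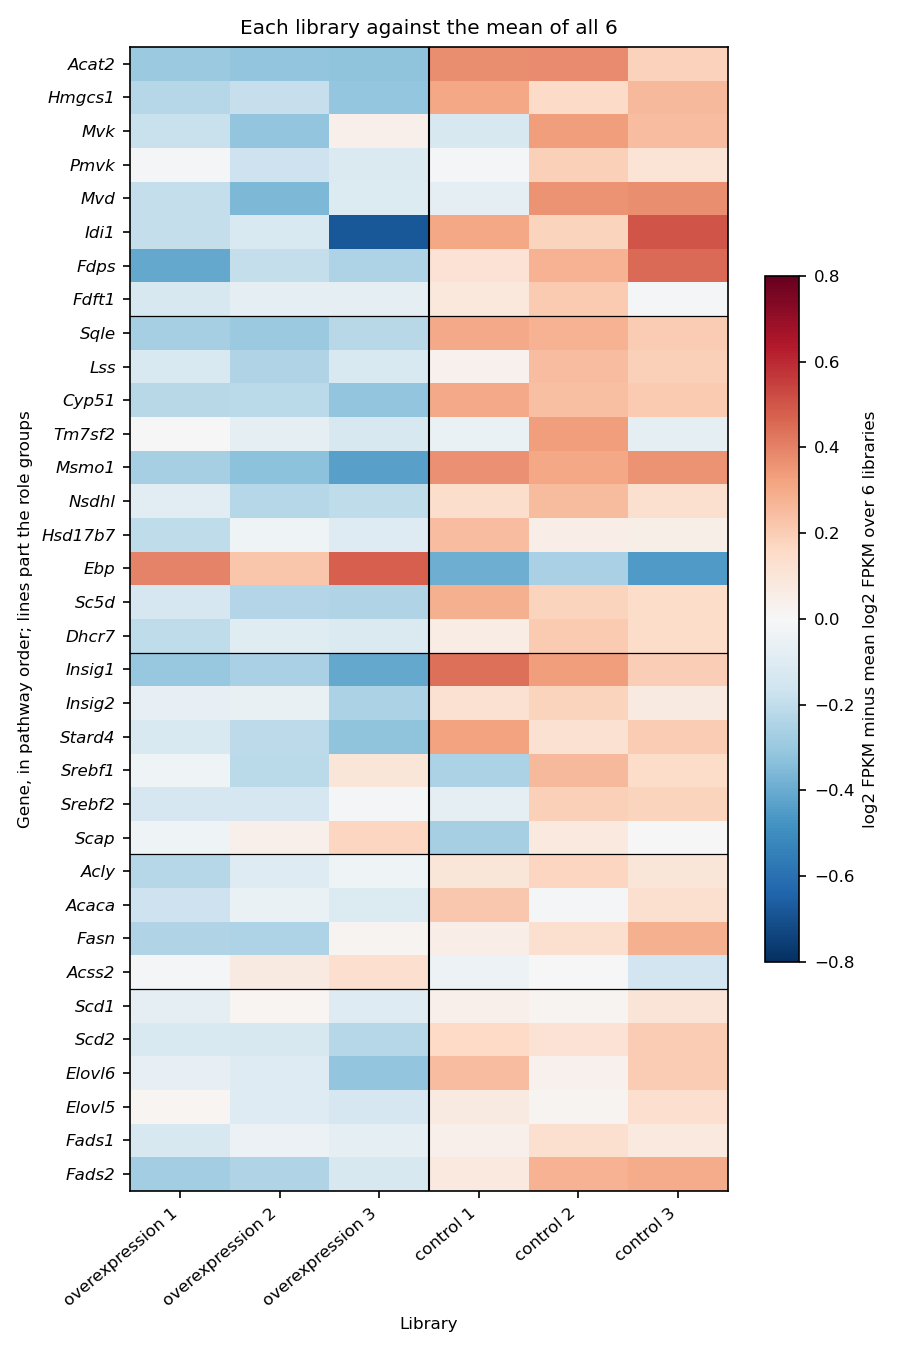
Each library's log2 FPKM minus the mean over the 6 libraries, per gene, with the 3 overexpression libraries left of the line and the 3 controls right of it. Most rows are blue on the left and red on the right, and Ebp has the opposite colours. Some rows are blue in control 1, among them Mvk, Srebf1 and Scap.

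Of the 4 genes that supply acetyl-CoA and build palmitate, 0 fell, 0 rose and 4 did not pass (all genes tested: 5.84% fell, 6.22% rose). Acly, which encodes ATP citrate lyase, the source of cytosolic acetyl-CoA, was the most abundant at 46.8, 51.0 and 53.5 FPKM with overexpression and 58.5, 61.6 and 58.5 FPKM in controls (log2 difference -0.24, SE 0.07, limma adjusted p = 0.0664). Fasn, the fatty acid synthase, had 30.7, 30.5 and 36.7 FPKM with overexpression and 37.5, 39.6 and 44.2 FPKM in controls (log2 difference -0.30, SE 0.09, limma adjusted p = 0.076). In both the groups did not overlap although the test did not pass. Both passed as lower with arrayWeights, voom and the GC correction, Acly also with quantile normalization and Fasn also with the replicate block and without overexpression 3. The authors' deposited table calls both lower (adjusted p = 0.0162 for Acly and 0.00888 for Fasn). Acaca, the acetyl-CoA carboxylase, differed by -0.19 (limma adjusted p = 0.149), and Acss2, the acetyl-CoA synthetase that uses acetate, by 0.09 with overlapping groups (limma adjusted p = 0.527).

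Of 6 genes of desaturation and elongation 2 fell, 0 rose and 4 did not pass (all genes tested: 5.84% fell, 6.22% rose). In all 6 every overexpression library lay below every control, a separation that 16.1% of all genes tested showed. In Scd1 the margin was narrow, at 62.29 FPKM in overexpression 2 against 62.38 FPKM in control 2. Scd2, a stearoyl-CoA desaturase and the most abundant of all 34 genes, had 147, 146 and 136 FPKM with overexpression, against 178, 173 and 184 FPKM in controls. It fell by 19.8% (log2 difference -0.32, SE 0.07, limma adjusted p = 0.0186), a call that ended without control 3 or without any of the overexpression libraries (adjusted p up to 0.0734). Its paralog Scd1 had 58.3, 62.3 and 57.3 FPKM with overexpression and 63.2, 62.4 and 65.9 FPKM in controls, and did not pass (log2 difference -0.10, SE 0.06, limma adjusted p = 0.366). The ratio of Scd2 to Scd1 was 2.52, 2.35 and 2.38 with overexpression and 2.82, 2.77 and 2.79 in controls (exact two-sided permutation p = 0.1, the smallest possible here).

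Fads2, the delta-6 desaturase that starts the synthesis of long polyunsaturated fatty acids, had 67.5, 69.3 and 74.8 FPKM with overexpression, against 86.2, 99.0 and 100.4 FPKM in controls. It fell by 25.9% (log2 difference -0.43, SE 0.08, limma adjusted p = 0.0108), and the call ended without overexpression 1 or 2 (adjusted p up to 0.0523). Fads1, the delta-5 desaturase, had 76.8, 81.1 and 79.8 FPKM with overexpression and 86.4, 91.8 and 88.7 FPKM in controls (log2 difference -0.17, limma adjusted p = 0.137). The elongase genes Elovl6 and Elovl5 differed by -0.30 and -0.14 (limma adjusted p = 0.0594 and 0.25). Elovl6 passed as lower with arrayWeights, voom, the GC correction and without control 2, and the authors' deposited table calls it lower (adjusted p = 0.00729). Summed over the 10 fatty acid enzymes, levels were 461, 474 and 469 FPKM with overexpression and 549, 563 and 581 FPKM in controls. The median difference was -0.32 for the 18 sterol enzymes and -0.22 for the 10 fatty acid enzymes, and the difference between these sets was not tested.

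A wider list held 25 further genes of the sterol pathway. Of these 23 were tested, of which 4 fell, 4 rose and 15 did not pass. The median difference was 0.01, and of all genes tested 5.84% fell and 6.22% rose. Not all genes of the list that passed are described here. Tmem97, an SREBP-responsive membrane protein known as the sigma-2 receptor, fell by 30.3%, with 22.7, 21.1 and 25.7 FPKM with overexpression and 32.9, 35.5 and 31.3 FPKM in controls (limma adjusted p = 0.00663). In contrast Npc1, which exports cholesterol from lysosomes, had 14.8, 15.4 and 13.7 FPKM with overexpression, against 7.58, 6.72 and 7.34 FPKM in controls, and rose 2.03-fold (limma adjusted p = 0.000164). Its partner Npc2 rose 1.25-fold (limma adjusted p = 0.018), with 31.1, 30.9 and 29.7 FPKM with overexpression and 23.6, 26.2 and 23.8 FPKM in controls, and the call ended without control 3, overexpression 1 or overexpression 2 (adjusted p up to 0.0836). Faf2, whose protein takes part in protein turnover at the endoplasmic reticulum, had 10.7, 11.2 and 10.5 FPKM with overexpression and 9.05, 8.45 and 8.44 FPKM in controls. It rose 1.25-fold (limma adjusted p = 0.0207), a call that ended without control 2, control 3, overexpression 1 or overexpression 2 (adjusted p up to 0.103). The most abundant genes of the list, Cyb5r3 and Cyb5b, did not pass (log2 differences -0.18 and 0.14). The protease genes Mbtps1 and Mbtps2 did not pass either (log2 differences 0.12 and -0.11).

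**Figure D4:**
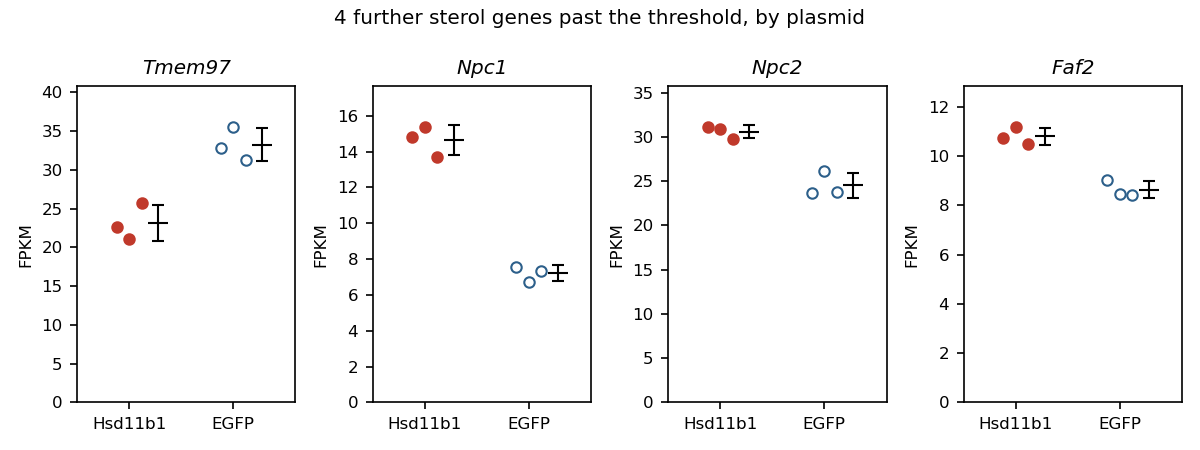
FPKM of 4 further sterol genes that passed the threshold, with points for the 3 overexpression libraries left and the 3 control libraries right in each panel, and a bar for the mean with the SD. Tmem97 is lower with overexpression, and Npc1, Npc2 and Faf2 are higher, without overlap between the groups.

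Of 33 further genes of fatty acid and glycerolipid synthesis 23 were tested, of which 0 fell, 2 rose and 21 did not pass (median difference -0.08). The shares over all genes tested were 5.84% lower and 6.22% higher. Mlxip, a glucose-sensing transcription factor of the ChREBP family, rose to 18.5, 18.5 and 17.9 FPKM with overexpression, against 10.4, 9.45 and 11.0 FPKM in controls (log2 difference 0.78, SE 0.07, limma adjusted p = 0.000333). Acsl4, an acyl-CoA synthetase that prefers arachidonic acid, rose 1.31-fold (limma adjusted p = 0.0361), but the call ended when any library except overexpression 3 was left out (adjusted p up to 0.133). The abundant Tecr and Degs1 differed by -0.03 and -0.09 and did not pass.

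Of 17 genes of sterol efflux, LXR signalling and cholesterol esters 10 were tested, of which 2 fell, 0 rose and 8 did not pass (median difference -0.01). The shares over all genes tested were 5.84% lower and 6.22% higher. Mylip, a ubiquitin ligase and LXR target, had 8.52, 9.68 and 8.92 FPKM with overexpression, against 11.9, 11.9 and 11.4 FPKM in controls, and fell by 22.9% (limma adjusted p = 0.0136), a call that ended without overexpression 1 (adjusted p = 0.0649). Cyp7b1, an oxysterol hydroxylase, fell by 32.3% (limma adjusted p = 0.0355), but the call ended without any library except control 1 (adjusted p up to 0.128) and with the GC correction. Cav1 and Lipa, the most abundant genes of this list, differed by 0.04 and 0.03. The efflux pump gene Abca1 lay below the level needed for testing, with 0.322, 0.290 and 0.372 FPKM with overexpression and 0.198, 0.127 and 0.136 FPKM in controls.

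Proliferation genes moved in the same direction as the sterol genes. All 12 on a short list fell, beside 5.84% of all genes tested, with a median difference of -0.61. Their summed level was 299 to 320 FPKM with overexpression, against 453 to 484 FPKM in controls. Of 6 glucocorticoid-induced genes the 5 tested rose, beside 6.22% of all genes tested. Among them Fkbp5 had 93.3, 98.3 and 96.5 FPKM with overexpression and 21.2, 21.1 and 20.8 FPKM in controls. The part of either change in the lower sterol genes was not tested.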

How the data were processed

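The authors deposited FPKM values for each gene and library. Their own comparison, also deposited, gives each gene's log2 fold change with its p-value, raw and adjusted. Per the submitters' processing notes, the build was mm10 and the tools included HISAT2 2.1.0, featureCounts 1.6.3 and cutadapt 2.5. Libraries were made with a stranded mRNA kit, per the labels. No source used here gives the annotation release, the strand setting or the tool behind that comparison. Exon lengths and GC content came from GENCODE M21 (GRCm38, the same as mm10). Read totals were those that made FPKM times length whole, within 0.05 reads, for 93.7% to 94.9% of values up to 1000 reads.

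limma 3.58.1 in R 4.3.3 (lmFit, eBayes with a trend) was run on log2(FPKM + 1) of the 13120 genes whose mean FPKM reached 1, with 3 overexpression and 3 control libraries and no covariate, two-sided, adjusted over all genes. Adding 1 shrinks the log2 difference of low genes, and percentages and folds are ratios of mean FPKM. Copies were sought with blastn at 95% identity over 300 bases. Besides those of Idi1, processed pseudogenes matched Acaca (99.2% over 6118 bases), Fdft1 (97.4% over 1249 bases) and Elovl6 (97.4% over 805 bases). Reads of these members may be split with them. The members and lists were chosen with earlier results of these data known. Values are given for every member past the threshold and the most abundant of each role group, and of related lists for genes past the threshold and the 2 most abundant. Other members, Acat3, AC123738.2, Ctsb, Mbtps1, Mbtps2, Abca1, Porcn and its neighbours were named after their values were seen. Some genes of the related lists that passed are counted but not reported here by name.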

Additional observations from a re-analysis of the deposited data

How the results depend on the processing

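With arrayWeights 1357 genes were higher and 1403 lower, and with the GC correction 1297 and 1162. With each library omitted in turn, the whole table held 483 (without overexpression 2) to 719 higher genes and 412 (without overexpression 2) to 618 lower genes, and 9 (without control 3 or overexpression 2) to 15 members were lower; the lower genes numbered 484 without control 3 and 464 without overexpression 1. Without the deepest library of each group, chosen after the data were seen, 478 genes and 11 members were lower. The members numbered 21 lower with arrayWeights, 20 with voom and 24 with the GC correction, against 13 as reported. Their median difference was -0.305 with a pseudocount of 0.1, -0.214 with a pseudocount of 5, and -0.295 to -0.24 with 1 library left out. The difference of Tm7sf2 was 0.021 without the deepest library of each group and that of Srebf1 ran from -0.231 without control 1 to 0.001 without control 2; the values 0.021 and 0.001 have the opposite sign to the reported value. The cause of these shifts was not tested.

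Of the 14 members past the threshold, 9 kept their direction and call in every alternative in which they were tested (Acat2, Hmgcs1, Sqle, Cyp51, Msmo1, Ebp, Sc5d, Insig1 and Stard4). For Sc5d and Stard4 the margin was narrow (limma adjusted p up to 0.0498 and 0.048). Of the 20 that did not pass, 11 passed in at least 1 alternative. With the replicate block, 11 members were lower (688 genes higher and 628 lower in all), and Fdps, Nsdhl and Scd2, with Faf2 and Acsl4 outside the members, lost their calls. Fasn passed under it, and no other call of the 34 members or of Tmem97, Npc1, Npc2, Mlxip, Mylip, Cyp7b1, AC123738.2 and Porcn changed. Deviations of same-numbered libraries from their group means correlated at 0.209, -0.294 and -0.027. Overexpression 1 and overexpression 2 both correlated best with control 1, and overexpression 3 correlated best with control 2. Because most of these deviations also followed GC content, they cannot settle whether same-numbered libraries belong together. Fdps had the fewest reads of the members, 81 to 291 per library.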

Other observations

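The gene next to Ebp moved with it. Porcn, which encodes the acyltransferase that attaches a fatty acid to Wnt proteins, lies on the same strand of chromosome X (8193848 to 8206525, GRCm38), and its annotated end is 335 bases from the start of Ebp (8185329 to 8193512). Porcn had 11.7, 11.8 and 11.5 FPKM with overexpression, against 2.61, 2.70 and 2.19 FPKM in controls, and rose 4.66-fold (log2 difference 1.86, SE 0.08, limma adjusted p = 3.82e-06), with 18 of the genes tested at a higher difference. The call held in all alternatives in which it was tested. Further neighbours within 100000 bases did not pass: Ftsj1 differed by 0.16, Tbc1d25 by 0.05, Wdr13 by 0.01, Rbm3 by -0.19 and Rbm3os by -0.22. The part of Porcn in the Ebp result was not tested.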
